A study of Mus musculus with 15 samples.

Results

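The mitochondrial ribosomal protein genes were read in Sca1+ mononuclear cells sorted from the spleens of 15 mice, each hybridised to its own exon array (Affymetrix Mouse Exon 1.0 ST). They were chosen by name: every gene whose symbol is Mrpl or Mrps followed by a number. This gave 68 of the 14860 genes tested, of which 43 carry a large subunit symbol (Mrpl) and 25 a small subunit symbol (Mrps). Where a gene had several probe sets, the one with the highest mean over the 15 arrays was taken, which concerned only Mrpl48.

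All mice were on the FVB/N background, with 3 arrays in each of 5 groups. MRP8NRASD12 mice (title numbers 8157, 8158 and 8159) carry mutant NRAS under the MRP8 promoter, the promoter of the myeloid calcium-binding protein S100a8, which is unrelated to the mitochondrial ribosome in spite of its name. The tethBCL2 mice (7758, 7465 and 7466) carry human BCL-2 under a tetracycline-responsive element with its transactivator driven by the MMTV long terminal repeat. Crossing these founders gives HR-MDS, a model of high-risk myelodysplastic syndrome (8111, 8019 and 8398, spleens taken at day 80). The MRP8hBCL2 mice (3012, 3386 and 3391) carry human BCL-2 under the MRP8 promoter. AML post MDS mice (3622, 3626 and 3518, spleens taken at day 36), a model of acute myeloid leukemia after myelodysplasia, carry both transgenes under that promoter. The founders' ages are not stated, and FVB/N controls were not analysed here. The sample labels give leukemia as the disease state of every mouse, founders included, so groups were taken from the titles.

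The title numbers fall into 3 series. The 3000s hold MRP8hBCL2 and AML post MDS, the 7000s hold tethBCL2, and the 8000s hold MRP8NRASD12 and HR-MDS. The labels do not say what the numbers stand for. A comparison of a 3000s group with any other group is also a comparison of MRP8-driven with tetracycline-driven or no BCL-2, and for the diseased mice of day 36 with day 80. For these comparisons the transgene, the number series and, between the diseased mice, the age cannot be told apart. The 7000s hold only tethBCL2. In HR-MDS against tethBCL2 and in tethBCL2 against MRP8NRASD12, transgene and number series therefore cannot be told apart either. Only 2 comparisons lie within a number series, AML post MDS against MRP8hBCL2 and HR-MDS against MRP8NRASD12, and both ask what the second transgene adds to a founder. By the Y-linked gene Eif2s3y the 3 MRP8NRASD12 arrays differed in sex from the 3 HR-MDS arrays and from the arrays of both BCL-2 founders. In those comparisons sex and transgene cannot be told apart either. AML post MDS 3518 shared the low Eif2s3y value of the MRP8NRASD12 arrays, unlike the other AML post MDS arrays. The comparisons of AML post MDS therefore mix sexes.

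Mitochondria carry their own ribosome, which translates the few proteins encoded in mitochondrial DNA, all of them subunits of the respiratory chain and of ATP synthase. Its rRNAs are transcribed inside the organelle, while its proteins are encoded in the nucleus, made in the cytosol and imported. About as many of them are descendants of bacterial ribosomal proteins as were added in the mitochondrial lineage, and the promoters of such nuclear genes are known for binding sites of NRF1, of the ETS factor GABP and of YY1.

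Of the 68 genes, 27 large and 14 small subunit genes encode homologues of bacterial ribosomal proteins, and 16 large and 10 small subunit genes encode mitochondria-specific ones. By current structures the products of Mrps18a and Mrps30 sit in the large subunit in spite of their symbols, and that of Mrps36 is no longer counted as a ribosomal protein. These 3 genes were kept under their symbols.

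Promoters were searched for the letters of NRF1, ETS and YY1 sites, of the E-box and of the TATA box. A RefSeq promoter of GRCm38.p6, 250 bases before to 50 after the annotated start, was found for 59 of the 68 genes. The ETS letters CCGGAAG stood on either strand in promoters of 20 of the 59 genes (33.9%), against 14.4% of 11894 genes tested that have a promoter and 9.93% of all 27025 genes with one. The NRF1 letters GCGCATGCG stood in 7 (11.9%, against 3.03% and 1.95%). The YY1 letters AAGATGGCG stood in 7 (11.9%, against 2.49% and 1.64%). The E-box CACGTG stood in 5 (8.47%, against 10.1% and 8.09%) and the TATA letters TATAAA in 5 (8.47%, against 13.2% and 15.7%). These sets of letters do not overlap each other where found in the sequences printed here, and 29 of the 59 genes held at least 1 of the NRF1, ETS and YY1 words. A match is a description of the letters and not a site shown to be bound.

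The 4 promoters shown are those of the gene that rose most in the 3000s arrays (Mrpl34), of the gene that fell most (Mrps26), of a gene that holds both NRF1 and ETS letters (Mrpl17) and of a small subunit gene with YY1 letters (Mrps11). Each is given 5′ to 3′ on the gene's own strand, to base 30 after the start, with the matched letters in capitals. Mrpl34 lies at chr8:71464676-71464955 on the plus strand and Mrps26 at chr2:130563507-130563786 on the plus strand. Mrpl17 lies at chr7:105811058-105811337 on the minus strand and Mrps11 at chr7:78782881-78783160 on the plus strand. The capitals are ETS letters in Mrpl34 and, read from the opposite strand, in Mrps26. In Mrpl17 they are first ETS and then NRF1 letters, the NRF1 word reaching from 11 to 3 bases before the start. In Mrps11 they are YY1 letters read from the opposite strand. The Mrps11 window overlaps that of Mrpl46, a minus strand gene whose window reaches down to chr7:78783040.
Mrpl34: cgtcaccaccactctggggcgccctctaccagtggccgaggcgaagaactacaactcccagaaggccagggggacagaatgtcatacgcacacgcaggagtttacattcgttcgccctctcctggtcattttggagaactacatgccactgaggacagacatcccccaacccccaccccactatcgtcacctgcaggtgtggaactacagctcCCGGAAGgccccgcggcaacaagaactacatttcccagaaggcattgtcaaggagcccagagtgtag
Mrps26: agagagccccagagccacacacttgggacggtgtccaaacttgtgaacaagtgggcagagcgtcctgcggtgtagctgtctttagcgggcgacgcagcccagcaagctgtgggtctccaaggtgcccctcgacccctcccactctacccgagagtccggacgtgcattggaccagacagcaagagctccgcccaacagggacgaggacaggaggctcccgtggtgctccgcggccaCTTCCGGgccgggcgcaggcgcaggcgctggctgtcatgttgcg
Mrpl17: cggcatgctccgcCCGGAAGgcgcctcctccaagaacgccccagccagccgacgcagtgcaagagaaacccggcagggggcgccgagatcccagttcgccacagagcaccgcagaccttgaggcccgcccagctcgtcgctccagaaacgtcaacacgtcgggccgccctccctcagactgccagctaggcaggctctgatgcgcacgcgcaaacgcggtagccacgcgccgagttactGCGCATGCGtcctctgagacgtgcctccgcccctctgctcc
Mrps11: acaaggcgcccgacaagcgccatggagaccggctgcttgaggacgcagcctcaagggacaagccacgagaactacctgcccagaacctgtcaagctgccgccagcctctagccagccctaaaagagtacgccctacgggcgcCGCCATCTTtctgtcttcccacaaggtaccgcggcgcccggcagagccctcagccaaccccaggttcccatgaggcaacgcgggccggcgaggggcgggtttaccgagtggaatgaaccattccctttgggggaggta

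The genes that rose and those that fell both held ETS letters. Of the 14 genes with a promoter whose 6 arrays of the 3000s all lay above the other 9 arrays, 6 held ETS letters, as did 3 of the 5 that lay below and 11 of the 40 whose arrays overlapped. NRF1 letters stood in 2 of the 14, in 0 of the 5 and in 5 of the 40, and YY1 letters in 3, 0 and 4.

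Values are the log2 values the authors deposited, and a difference is a difference of group means on that log2 scale. A gene was called when limma's two-sided test passed at a Benjamini-Hochberg adjusted p under 0.05 over all 14860 genes. The 15 array means of the 68 genes ran from 5.75 to 10.1, and levels of different genes are not compared, since each has its own probes. The p-values measure the spread between the mice of these groups, and in bulk cells fewer cells of a type and less RNA per cell cannot be told apart. B cell markers were high on every array (group ranges of the median marker between 11.4 and 12.1), and Ly6a, the gene of the sorting antigen, was not read by a probe set with a single symbol. The neutrophil markers, 11 genes, moved most between the groups: the median marker was 11.3 to 12.2 in MRP8NRASD12, 5.72 to 6.24 in tethBCL2, 8.02 to 11.2 in HR-MDS, 9.08 to 9.80 in MRP8hBCL2 and 9.36 to 11.4 in AML post MDS. The Y-linked gene Eif2s3y was near 4 in the 3 MRP8NRASD12 arrays and in AML post MDS 3518 (3.65 to 4.01) and at 9.25 to 10.3 in the other 11 arrays.

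Within a number series, no mitochondrial ribosomal protein gene was called. Adding NRASD12 to MRP8hBCL2 (AML post MDS against MRP8hBCL2) called 0 of the 68 genes by limma, beside 287 of all genes (1.93%). The genes nevertheless lay higher in AML post MDS than all genes did: 59 of the 68 differences were above 0, with a median of 0.20 beside 0.03 over all genes tested, and 0.24 for the large and 0.15 for the small subunit genes. At an unadjusted p under 0.05, 17 of the 68 passed, all 17 of them higher, beside 15.8% of all genes (10.1% passed and higher). The methods' t-test called 11 at an unadjusted p under 0.05 (10.2% of all genes) and 0 at an adjusted one (0 of all genes).

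Mrpl12, the homologue of the bacterial stalk protein that receives translation factors, stood at the edge of the threshold. It read 8.71, 8.45 and 8.57 in the MRP8hBCL2 mice and 9.74, 9.14 and 8.90 in the AML post MDS mice. The groups did not overlap, and the difference was 0.69 (SE 0.16, limma adjusted p = 0.0505). Without AML post MDS 3622, the highest of the 3, it was 0.45 (limma adjusted p = 0.10). Without AML post MDS 3518, the lowest, it was 0.87 (limma adjusted p = 0.028). AML post MDS 3518 was also the only array of this comparison with a low Eif2s3y value (3.65). Mrps2, a small subunit protein near the path of the messenger, read 8.60, 8.65 and 8.74 against 9.05, 8.97 and 9.01, a difference of 0.35 (SE 0.08, limma adjusted p = 0.053). Mrps24, the homologue of the bacterial protein S3 at the entry of the messenger, read 8.454, 8.516 and 8.512 against 8.996, 8.701 and 8.881, a difference of 0.36 (SE 0.10, limma adjusted p = 0.078). In all 3 genes the highest MRP8hBCL2 mouse lay below the lowest AML post MDS mouse. These 3 genes were named for the smallest p in this comparison, so the separation follows in part from that choice.

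How many of these differences pass depends on the scaling and on the weight of single arrays. With limma's array weights 19 genes were called in AML post MDS against MRP8hBCL2, 18 of them higher, beside 11.8% of all genes. Without MRP8hBCL2 3391 there were 4, all higher, beside 5.13% of all genes. Without MRP8NRASD12 8157, which enters only the shared spread, there were 2 (3.12% of all genes), and without MRP8NRASD12 8158, MRP8NRASD12 8159 or AML post MDS 3518 there was 1 (1.74%, 2.13% and 0.579% of all genes). The AML post MDS array 3622 stood highest: its median deviation from the 15-array means was 0.41 over the 68 genes, beside 0.04 in 3626 and 0.08 in 3518, and without it the median difference fell from 0.20 to 0.09. The proliferation markers moved in the same comparison, with 5 of 6 called higher and a median difference of 1.64, and the neutrophil markers with 2 of 11 called higher and a median of 1.32. The median proliferation marker was 9.23 in MRP8hBCL2 3391, beside 7.52 in 3012 and 7.70 in 3386, and 9.6 to 10.2 in AML post MDS. The part of these markers in the difference of the ribosomal protein genes was not tested.

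**Figure D1:**
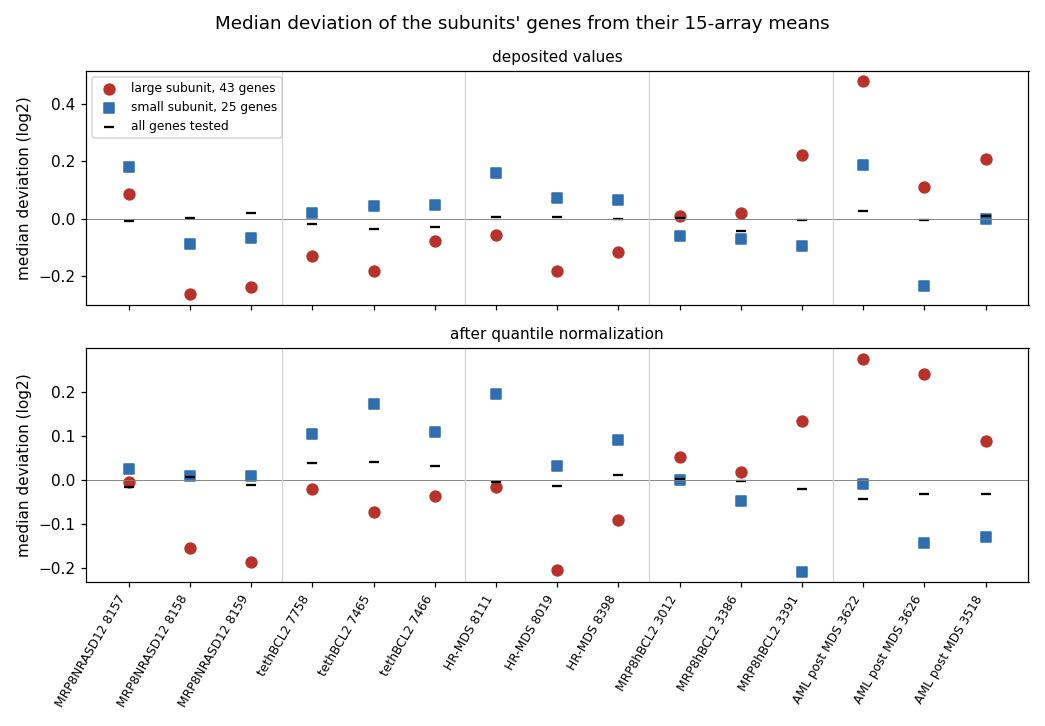
Median deviation (log2) of the 43 large subunit genes (circles), the 25 small subunit genes (squares) and all 14860 genes (dashes) from their 15-array means, for each array on the horizontal axis, as deposited (top) and after quantile normalization (bottom). Large subunit genes lie between -0.27 and 0.09 on the 9 arrays of the 7000s and 8000s and between 0.01 and 0.48 on the 6 arrays of the 3000s, with AML post MDS 3622 highest on the deposited scale.

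Adding tetracycline-driven BCL-2 to NRASD12 (HR-MDS against MRP8NRASD12) called 0 of the 68 genes by limma, beside 2 of all genes (0.0135%). The median difference was -0.01 beside 0.00 over all genes, 1 gene passed at an unadjusted p under 0.05 (6.1% of all genes did), and the methods' t-test called 3 unadjusted (3.37% of all genes) and 0 adjusted (0.00673%). The gene that passed limma's unadjusted test was Mrpl33, a small large subunit protein of bacterial descent, with 7.24, 6.88 and 6.94 in MRP8NRASD12 and 6.81, 6.47 and 6.68 in HR-MDS. All HR-MDS mice lay below the MRP8NRASD12 mice, and the difference was -0.37 (SE 0.13, limma adjusted p = 0.80). Next by p came Mrpl16, which borders the tRNA sites, with a difference of 0.30 (SE 0.15, limma adjusted p = 0.84) and overlapping groups (7.81, 7.16 and 7.36 against 7.78, 7.65 and 7.80). For Mrpl32, whose yeast and mouse proteins need cleavage by the m-AAA protease before they assemble, values of 8.31, 7.78 and 8.10 stood against 8.40, 8.35 and 8.32 (difference 0.29, SE 0.16, limma adjusted p = 0.87). All HR-MDS mice lay above the MRP8NRASD12 mice in this gene, and over the 68 genes the differences ran from -0.37 to 0.40. Without MRP8NRASD12 8158, the lowest array of its group in both Mrpl16 and Mrpl32, their differences were 0.16 and 0.15, and without MRP8NRASD12 8157, the highest, Mrpl16 differed by 0.48 (limma adjusted p = 0.093) and Mrpl32 by 0.42 (limma adjusted p = 0.19). MRP8NRASD12 8157 correlated least with its group over all genes (mean r = 0.976, beside 0.981 to 0.994 on the other arrays). Without it and HR-MDS 8398, still 0 genes were called and the median difference was 0.12. HR-MDS 8398 had a median neutrophil marker of 8.02, beside 11.1 in 8111 and 11.2 in 8019.

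HR-MDS against its other founder, tethBCL2, crosses number series and also called 0 of the 68 genes by limma, beside 67 of all genes (0.451%). The median difference was 0.02 beside 0.04 over all genes, and -0.16 beside -0.14 on subtracting array medians. At an unadjusted p under 0.05, 2 genes passed (11.3% of all genes did), and the methods' t-test called 9 unadjusted (16.6% of all genes) and 0 adjusted (0.0336%). All of these counts lay below or near the share of all genes. Mrpl14, at the face between the subunits, read 6.48, 6.76 and 6.58 in tethBCL2 and 7.09, 6.81 and 7.18 in HR-MDS, without overlap (difference 0.42, SE 0.16, limma adjusted p = 0.30). Mrps12, the homologue of the decoding centre protein S12, read 6.63, 6.61 and 6.38 against 6.95, 6.84 and 6.68, also without overlap (difference 0.28, SE 0.11, limma adjusted p = 0.30). Mrpl57, a mitochondria-specific protein of the large subunit, read 7.73, 7.54 and 7.44 against 8.09, 7.81 and 7.84 (difference 0.34, SE 0.17, limma adjusted p = 0.49). These genes too were named for the smallest p in the comparison, so their separation follows in part from that choice. In this comparison all 11 neutrophil markers were called higher in HR-MDS, with a median difference of 5.19.

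Few of these genes were called between the founders of HR-MDS. In tethBCL2 against MRP8NRASD12, limma called 3 of the 68 genes, 1 higher and 2 lower, beside 8.83% of all genes, and in this comparison all 11 neutrophil markers were called lower (median difference -6.39) and all 6 proliferation markers (median -2.18). Mrps30 was the gene called higher, with 8.01, 8.24 and 8.29 in tethBCL2 and 7.73, 7.86 and 7.62 in MRP8NRASD12 (difference 0.44, SE 0.13, limma adjusted p = 0.045). Mrpl33 was lower, with 6.26, 6.70 and 6.55 in tethBCL2 against the values given above (difference -0.51, SE 0.13, limma adjusted p = 0.031). Mrps12 was lower as well, at 6.63, 6.61 and 6.38 against 6.93, 6.97 and 6.92 (difference -0.40, SE 0.11, limma adjusted p = 0.033). The 3 calls rest on the scaling: subtracting each array's median moved the median of all genes in this comparison from -0.05 to 0.16 and that of the 68 genes from -0.05 to 0.17, and then 15 genes were called, all 15 higher, beside 20.3% of all genes, and 1 of the 15, Mrps30, was among the 3. Under quantile normalization 3 were called, all higher (11% of all genes were called). The count was 11 without MRP8NRASD12 8157 (21.8% of all genes), 5 without MRP8hBCL2 3012 (9.2%), 1 without tethBCL2 7465 (4.29%) and 0 without tethBCL2 7758 (4.2%), tethBCL2 7466 (4.21%) or MRP8NRASD12 8159 (3.98%).

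The counts were higher where a 3000s group was compared with another series. In each of the 4 comparisons made of a 3000s group with a 7000s or 8000s group, which share arrays in part, between 26 and 32 of the 68 genes were called, on the deposited scale with large subunit genes mostly higher and small subunit genes divided. AML post MDS against MRP8NRASD12 called 32 of the 68 genes by limma (47.1%), beside 22.4% of all genes. A fit of only the arrays compared called 19 (12.4% of all genes), and the methods' t-test with adjusted p called 5 (1.97%). Of the 32, 25 were higher (13.6% of all genes were called higher) and 7 lower (8.74%). The large subunit had 20 called higher and 2 lower, and the small subunit 5 and 5, with median differences of 0.39 and -0.08 beside -0.01 over all genes.

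AML post MDS against HR-MDS called 32 of the 68 (47.1%) beside 24.2% of all genes, 23 of them higher (14.3% of all genes) and 9 lower (9.9%). Here the large subunit had 19 called higher and 2 lower and the small subunit 4 and 7, with median differences of 0.37 and -0.15 beside 0.00. Under quantile normalization the call was 22 higher and 15 lower (29% of all genes were called), and the methods' t-test with adjusted p called 18 (9.48% of all genes).
MRP8hBCL2 against tethBCL2 called 31 of the 68 (45.6%) beside 22.6% of all genes, 18 higher (13.5%) and 13 lower (9.12%). Its split moved with the scaling, to 16 higher and 18 lower under quantile normalization (25.6% of all genes) and to 14 and 20 on subtracting array medians (25.8%), which moved the median of all genes from 0.03 to -0.14. The large subunit median was 0.24, 0.14 and 0.07 on the 3 scales and the small subunit median -0.03, -0.16 and -0.20. On subtracting array medians the large subunit genes called were 11 higher and 9 lower.
MRP8hBCL2 against MRP8NRASD12 called 26 of the 68 (38.2%) beside 22.1% of all genes, 15 higher (12.2%) and 11 lower (9.93%), with 12 and 3 in the large and 3 and 8 in the small subunit. A fit of only the arrays compared called 13 (11.1% of all genes), and the methods' t-test with adjusted p called 3 (2.91%).

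The background was also taken over the 9104 genes whose 15-array mean lay within the range of the 68. It was 29.2% for AML post MDS against MRP8NRASD12, 31.6% for AML post MDS against HR-MDS, 30.5% for MRP8hBCL2 against tethBCL2 and 29.3% for MRP8hBCL2 against MRP8NRASD12, in each case below the share of the 68 genes called. Over all 5 groups the moderated F test called 38 of the 68 genes, beside 34.3% of all genes. The smallest p were those of Mrpl4 (adjusted p = 1.1e-06), Mrpl43 (adjusted p = 6.5e-06) and Mrpl34 (adjusted p = 8.6e-06), all by limma.

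**Figure D2:**
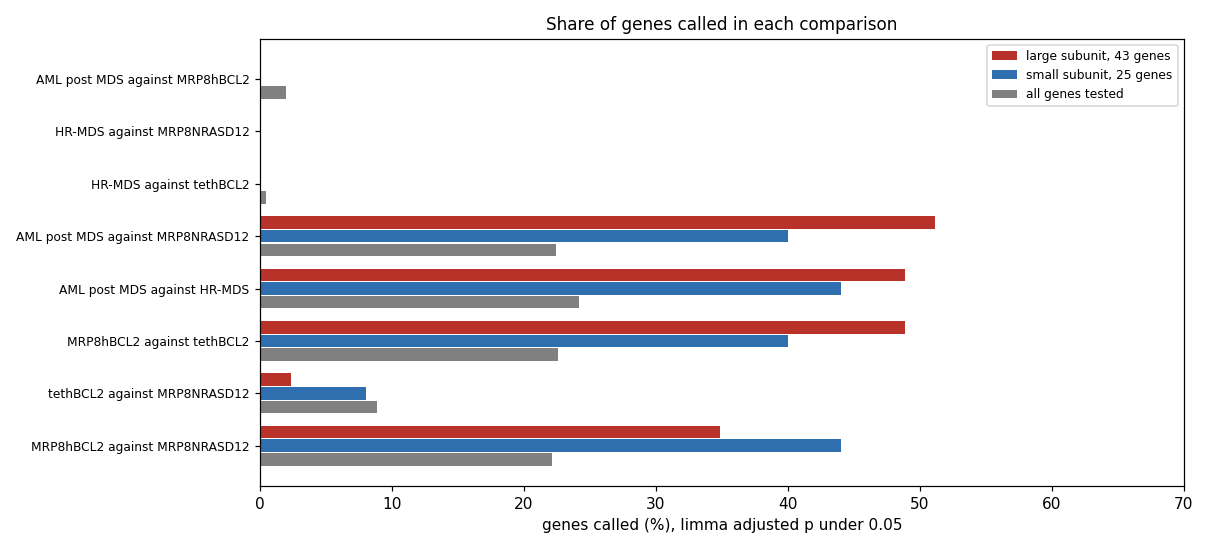
Share of genes called by limma (%, adjusted p under 0.05, horizontal axis) in each of the 8 comparisons, for the 43 large subunit genes, the 25 small subunit genes and all 14860 genes. The bars of both subunits are empty in the first 3 comparisons and exceed the grey bar of all genes in the 4 comparisons of a 3000s group with another series.

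The comparisons AML post MDS against HR-MDS and MRP8hBCL2 against tethBCL2 share no array. They called 32 and 31 of the 68 genes, of which 27 were called in both (84.4% of the first list and 87.1% of the second), all 27 in the same direction. Over all genes the shared part was 2519 genes, 70.1% and 75.1% of the lists. Across the 68 genes the differences of the 2 comparisons correlated with Pearson r = 0.94 and Spearman rho = 0.93, beside 0.83 and 0.78 across all genes. AML post MDS against MRP8NRASD12 and MRP8hBCL2 against tethBCL2 share no array either. They had 23 called genes in common (71.9% and 74.2%, beside 65.5% and 64.9% over all genes). For AML post MDS against HR-MDS and MRP8hBCL2 against MRP8NRASD12 it was 21 (65.6% and 80.8%, beside 53.9% and 58.9%). Pearson r was 0.90 and 0.87 in these pairs, beside 0.71 and 0.56 across all genes. These are descriptions across genes, which are not independent replicates, and each comparison sets a 3000s group against another series.

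**Figure D3:**
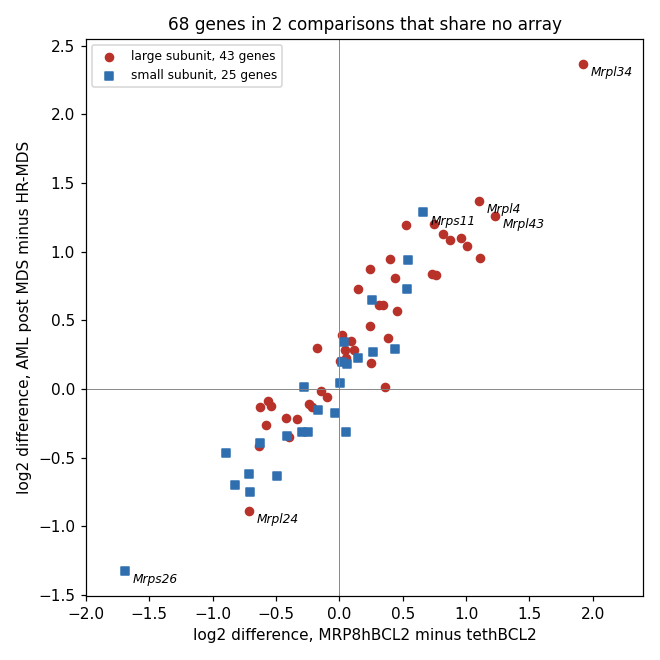
Each point is 1 of the 68 genes, with its log2 difference between the BCL2 founders (MRP8hBCL2 minus tethBCL2) on the horizontal axis and between the diseased models (AML post MDS minus HR-MDS) on the vertical axis, circles for large and squares for small subunit genes. The signs are the same for 65 of the 68 genes, and Mrpl34 and Mrps26 lie at the ends.

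Read array by array, 21 of the 68 genes separated the 6 arrays of the 3000s from the other 9 without overlap, 16 above (7.82% of all genes did) and 5 below (5.37%). The large subunit gave 13 above and 2 below and the small subunit 3 and 3. The 16 were Mrpl4, Mrpl10, Mrpl12, Mrpl17, Mrpl19, Mrpl30, Mrpl34, Mrpl35, Mrpl43, Mrpl50, Mrpl52, Mrpl57, Mrpl58, Mrps2, Mrps11 and Mrps24. The 5 were Mrpl2, Mrpl24, Mrps18c, Mrps23 and Mrps26. The contrast of the 3000s with the other arrays held a median of 43.3% of a gene's variance over the 15 arrays among the 68, beside 18.9% among all genes.

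Of the genes named by the size of their differences, those of the large subunit come first. Mrpl34, the homologue of the bacterial protein L34, had the widest range of the 68 genes (3.01 over the 15 arrays). It read 8.33, 7.83 and 7.78 in MRP8NRASD12, 7.24, 7.86 and 7.39 in tethBCL2 and 7.70, 7.70 and 7.80 in HR-MDS, and 8.84, 9.41 and 9.99 in MRP8hBCL2 and 10.24, 10.03 and 10.02 in AML post MDS. The lowest MRP8hBCL2 mouse lay above all 9 mice of the other series, and the 3 AML post MDS mice above all others. The difference of AML post MDS from HR-MDS was 2.37 (SE 0.24, limma adjusted p = 1.8e-05), from MRP8NRASD12 2.12 (adjusted p = 5.0e-05), and that of MRP8hBCL2 from tethBCL2 1.92 (adjusted p = 9.4e-05).

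Mrpl4, whose bacterial homologue L4 reaches into the wall of the tunnel for the new chain, read 8.71, 8.62 and 8.37 in MRP8NRASD12, 8.36, 8.41 and 8.39 in tethBCL2 and 8.43, 8.60 and 8.46 in HR-MDS. In MRP8hBCL2 it read 9.44, 9.45 and 9.57 and in AML post MDS 10.04, 9.71 and 9.85. Its spread within groups was small, with SDs of 0.02 to 0.18 (n = 3), and AML post MDS differed from HR-MDS by 1.37 (SE 0.11, limma adjusted p = 3.0e-06). Mrpl17, next to the tunnel exit, ran from 8.28 to 8.91 on the 6 arrays of the 3000s and from 7.24 to 8.07 on the others. It rose by 1.04 (SE 0.22, limma adjusted p = 0.0033) in AML post MDS over HR-MDS and by 1.01 (SE 0.22, limma adjusted p = 0.0044) in MRP8hBCL2 over tethBCL2.

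Mrpl24, also at the tunnel exit and in bacteria an early assembly protein, went the other way. It read 9.41, 8.61 and 8.52 in MRP8NRASD12, 8.71, 8.77 and 8.87 in tethBCL2 and 8.82, 8.85 and 9.18 in HR-MDS, against 8.03, 8.06 and 8.14 in MRP8hBCL2 and 8.12, 7.93 and 8.14 in AML post MDS. The 6 arrays of the 3000s kept within 7.93 to 8.14, and AML post MDS was lower than HR-MDS by a difference of -0.89 (SE 0.19, limma adjusted p = 0.0033). Mrpl24 thus fell where Mrpl4, Mrpl17 and Mrpl34 rose.

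**Figure D4:**
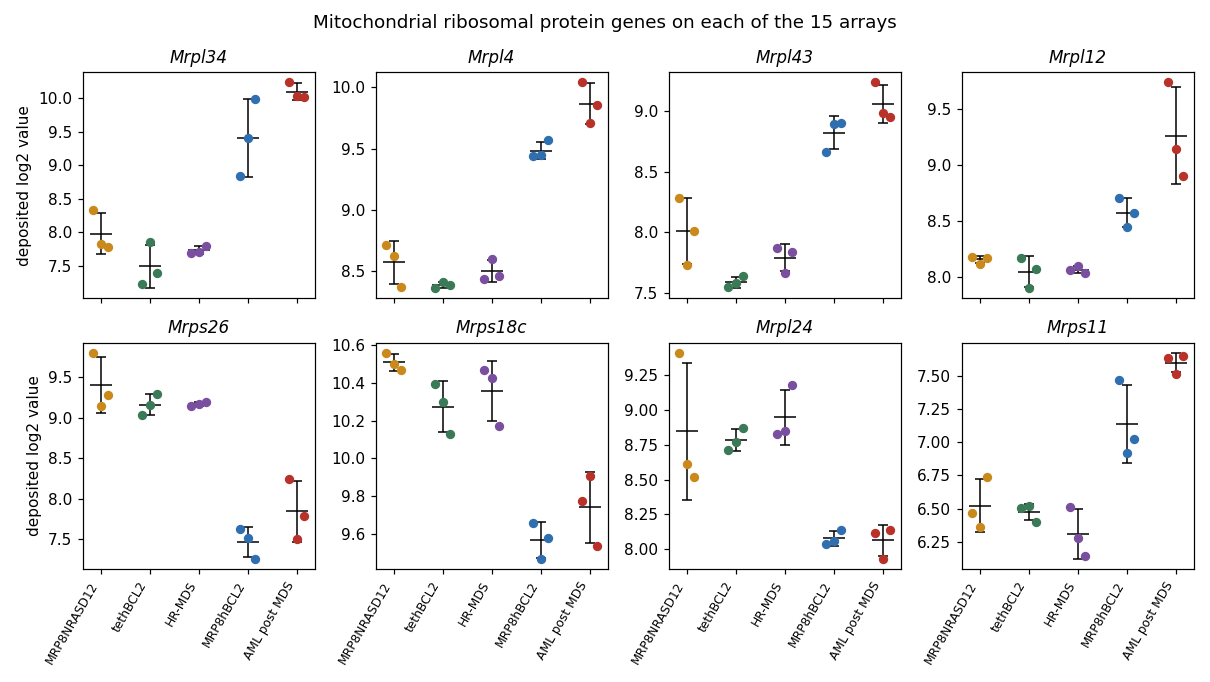
Deposited log2 value of 8 genes on each of the 15 arrays, with 3 points per group and the mean and SD of each group as a dash and bars. Mrpl34, Mrpl4, Mrpl43, Mrpl12 and Mrps11 are higher and Mrps26, Mrps18c and Mrpl24 lower on the 6 arrays of MRP8hBCL2 and AML post MDS, without overlap with the other 9 arrays.

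The mitochondria-specific genes of the large subunit were counted apart. In AML post MDS against HR-MDS, 6 of 16 were called, all higher (median difference 0.27), beside 13 higher and 2 lower of the 27 bacterial homologues (median 0.46). Of all genes, 14.3% were called higher and 9.9% lower there. In MRP8hBCL2 against tethBCL2, 4 of the 16 were called higher and 2 lower (median 0.10), beside 13.5% and 9.12% of all genes. Against MRP8NRASD12, 4 were called higher and 1 lower (median 0.19), beside 12.2% and 9.93%. The lower calls thus lay near or below the share of all genes. Mrpl43 led the mitochondria-specific genes of the large subunit. It read 8.28, 7.74 and 8.02 in MRP8NRASD12, 7.55, 7.58 and 7.64 in tethBCL2 and 7.87, 7.66 and 7.84 in HR-MDS. In MRP8hBCL2 it read 8.66, 8.89 and 8.90 and in AML post MDS 9.23, 8.98 and 8.95. It was higher by 1.26 (SE 0.13, limma adjusted p = 2.2e-05) in AML post MDS than in HR-MDS. Mrpl57 was higher by 0.95 (SE 0.17, limma adjusted p = 0.0011) in that comparison and by 1.11 (SE 0.17, limma adjusted p = 0.00041) in MRP8hBCL2 over tethBCL2.

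Mrpl35 and Mrpl36, short proteins of bacterial descent that are buried in the rRNA of the large subunit, stood between these. Mrpl35 ran from 7.92 to 8.52 on the 9 arrays of the 7000s and 8000s and from 9.01 to 9.67 on the 6 arrays of the 3000s. Its difference between AML post MDS and MRP8NRASD12 was 1.21 (SE 0.16, limma adjusted p = 0.00016). Mrpl36 overlapped between the series, because MRP8NRASD12 8157 read 8.78 beside 8.23 and 7.74 in the other mice of that group, and it differed by 1.12 (SE 0.20, limma adjusted p = 0.0014) in the same comparison.

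In the small subunit the largest change was a fall. Mrps26, a mitochondria-specific protein, read 9.80, 9.15 and 9.28 in MRP8NRASD12, 9.03, 9.15 and 9.29 in tethBCL2 and 9.14, 9.17 and 9.19 in HR-MDS. It read 7.63, 7.51 and 7.26 in MRP8hBCL2 and 8.24, 7.50 and 7.78 in AML post MDS, so the highest mouse of the 3000s lay well below the lowest of the others at 9.03. The difference was -1.69 (SE 0.19, limma adjusted p = 3.5e-05) for MRP8hBCL2 against tethBCL2 and -1.32 (SE 0.19, limma adjusted p = 0.00022) for AML post MDS against HR-MDS. Mrps23, another mitochondria-specific protein, ran from 8.48 to 8.95 in the 3000s and from 9.16 to 9.55 elsewhere (difference -0.75, SE 0.12, limma adjusted p = 0.00037 for AML post MDS against HR-MDS). Mrps34, whose product holds the small subunit rRNA in place, fell in MRP8hBCL2 against tethBCL2 by a difference of -0.89 (SE 0.16, limma adjusted p = 0.0011), from 8.63, 8.51 and 8.37 to 7.89, 7.34 and 7.62. In AML post MDS it read 8.33, 7.78 and 7.99 against 8.61, 8.50 and 8.37 in HR-MDS (difference -0.47, SE 0.16, limma adjusted p = 0.047), without overlap.

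The bacterial homologues of the small subunit split. Mrps11, on the platform where the messenger leaves, read 6.47, 6.36 and 6.74 in MRP8NRASD12, 6.51, 6.52 and 6.40 in tethBCL2 and 6.51, 6.28 and 6.14 in HR-MDS, against 7.46, 6.92 and 7.03 in MRP8hBCL2 and 7.63, 7.51 and 7.65 in AML post MDS. It was higher in AML post MDS than in HR-MDS by 1.29 (SE 0.15, limma adjusted p = 3.5e-05). Mrps18c, 1 of a set of related genes for the homologue of S18, ran from 9.47 to 9.91 in the 3000s and from 10.1 to 10.6 elsewhere, a difference of -0.71 (SE 0.12, limma adjusted p = 0.00066) for MRP8hBCL2 against tethBCL2. Mrps17, which binds rRNA in the body of the subunit, was lower in the same comparison by a difference of -0.82 (SE 0.23, limma adjusted p = 0.021), at 7.19, 7.44 and 7.63 against 8.25, 8.21 and 8.26. That call was lost without any 1 of the tethBCL2 arrays or without MRP8hBCL2 3012 or 3386 (limma adjusted p = 0.054 to 0.074). The closely related Mrps18 genes and other paralogs share stretches of sequence, and how well their probes separate them is not stated.

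The change on adding NRASD12 was compared between the BCL-2 backgrounds. AML post MDS and MRP8hBCL2 share a number series, but HR-MDS and tethBCL2 do not. In the difference between the changes, BCL-2 background and the step between number series therefore cannot be told apart. The difference between the changes (AML post MDS minus MRP8hBCL2, less HR-MDS minus tethBCL2) passed limma's test in 0 of the 68 genes, beside 0 of all genes (0%). At an unadjusted p under 0.05, 5 of the 68 passed, all above 0, beside 4.6% of all genes, and the median over the 68 was 0.17. The changes on adding NRASD12 were therefore not shown to differ between the backgrounds.

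Markers of other cell types were counted in AML post MDS against HR-MDS and in MRP8hBCL2 against tethBCL2. In AML post MDS against HR-MDS, limma called 0 of the 11 neutrophil markers (median difference 0.36, with 0 at an unadjusted p under 0.05 by limma or by the methods' t-test), 3 of 5 T cell markers higher and 1 lower, all 4 early myeloid granule markers higher (median 2.45) and 4 of 6 proliferation markers higher (median 1.57). In MRP8hBCL2 against tethBCL2 it called 8 of 11 neutrophil markers higher (median 3.31), 3 of 5 T cell markers higher, all 4 granule markers higher (median 4.27) and 4 of 6 proliferation markers higher (median 1.72). The median T cell marker was 10.0 to 10.9 on the 3000s arrays and 8.66 to 9.99 on the others. The gap was narrow, 10.011 in AML post MDS 3626 against 9.992 in tethBCL2 7466, and the 5 markers did not move together. In AML post MDS the means of Cd3e, Cd3g and Cd4 were higher than in HR-MDS. Those of Cd3d (8.607 against 9.202) and Cd8a (9.086 against 9.656) were lower. In MRP8hBCL2 against tethBCL2, Cd3d read 9.27 against 9.415 and Cd8a 9.932 against 9.92. B cell markers had 2 of 5 called lower in each comparison and 0 higher. Stem and progenitor markers had 2 of 6 and 3 of 6 called higher and 0 lower. Monocyte and macrophage markers, 4 genes, had 1 called lower in each and 1 higher in MRP8hBCL2 against tethBCL2. No erythroid marker was called in either. The shares called among all genes were 24.2% and 22.6%. The part of these cell types in the counts of ribosomal protein genes was not tested.

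Other genes of mitochondrial translation were counted in the comparison of AML post MDS with HR-MDS, in which 24.2% of all genes were called, 14.3% higher and 9.9% lower. Of 3 further ribosomal proteins with other names, Gadd45gip1 (large subunit) and Chchd1 (small subunit) were called higher in AML post MDS than in HR-MDS (differences 0.82 with SE 0.13, limma adjusted p = 0.00051, and 0.56 with SE 0.18, limma adjusted p = 0.039), and Ptcd3 was not called. Of 18 assembly factors, 2 were called higher and 4 lower (33.3%). Noa1, a GTPase of small subunit assembly, was higher by 1.20 (SE 0.21, limma adjusted p = 0.0011) and Rbfa, a small subunit maturation factor, by 0.78 (SE 0.11, limma adjusted p = 0.00019). Fastkd2, needed for the large subunit rRNA, was lower by a difference of -1.17 (SE 0.19, limma adjusted p = 0.00049). Within a number series only 1 gene of these lists was called: Nsun4, an rRNA methyltransferase, was lower in AML post MDS than in MRP8hBCL2 by a difference of -0.65 (SE 0.13, limma adjusted p = 0.028).

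Of 13 translation factors, 2 were called higher and 1 lower (23.1%) in AML post MDS against HR-MDS, a share near that of all genes. These were Mrrf, the ribosome recycling factor (1.43, SE 0.14, limma adjusted p = 1.2e-05), Oxa1l, the insertase that takes new chains into the inner membrane (0.82, SE 0.11, limma adjusted p = 0.00013), and Gfm1, the elongation factor G (-1.06, SE 0.18, limma adjusted p = 0.00066). Of 18 genes for charging mitochondrial tRNAs, 3 were higher and 1 lower (22.2%), also near that of all genes, led by Gatc, a subunit of the amidotransferase that makes glutaminyl-tRNA (2.49, SE 0.25, limma adjusted p = 1.7e-05). Of 13 genes for mitochondrial DNA and RNA, 3 were higher and 2 lower (38.5%). Slirp, an RNA-binding protein that stabilises mitochondrial messengers, was higher by 1.13 (SE 0.27, limma adjusted p = 0.0082), Twnk, the mitochondrial DNA helicase, was lower by a difference of -0.63 (SE 0.15, limma adjusted p = 0.0080), and the RNA polymerase Polrmt was higher by 0.33 (SE 0.09, limma adjusted p = 0.014). Of 14 transcription factors of mitochondrial genes, 0 were called higher and 2 lower (14.3%, below the share of all genes). Both were genes of beta subunits of GABP. Gabpb1 was lower by a difference of -0.68 (SE 0.13, limma adjusted p = 0.0020) and Gabpb2 by -0.54 (SE 0.18, limma adjusted p = 0.045). Gabpa, their DNA-binding partner, was not called, with means of 9.04 and 9.20. The median differences of the translation factors, tRNA-charging genes and DNA and RNA genes were 0.03, 0.21 and -0.10, beside 0.37 for the large and -0.15 for the small subunit genes.

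The ribosomal proteins of the cytosol were less well covered, with 19 genes read by a probe set of a single symbol. Of these 3 were called higher and 5 lower in AML post MDS against HR-MDS, 42.1% beside 24.2% of all genes, with a median difference of -0.27, and 0 in AML post MDS against MRP8hBCL2 by limma, where 1 passed at an unadjusted p under 0.05 and the methods' t-test called 1 unadjusted and 0 adjusted. The 19 were taken by symbol and include Rps27l, Rps4l, Rpl39l and Rpl3l, named as relatives of other ribosomal protein genes. Rps27l was 1 of the 3 called higher in AML post MDS against HR-MDS (3.6, SE 0.59, limma adjusted p = 0.00056). In 4 of the 19 (21.1%) the 3000s arrays did not overlap the others, 1 above and 3 below (7.82% and 5.37% of all genes). Many cytosolic ribosomal protein genes have processed pseudogenes, so these probes are uncertain. Whether the mitochondrial and cytosolic genes differ in this was not tested.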

How the data were processed

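The table the authors deposited holds a log2 value for each probe set on each array, from EASANA with FAST DB annotations and genome build mm9; how probes were summarized and scaled is not stated. Values were used as they stand. Of 23332 probe sets, 14996 carry 1 platform symbol, 1019 several and 7317 none; the last 2 kinds were left out. Genes with several probe sets (135) took the one with the highest mean, which left 14860 genes with no filter on low values.

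The 8 comparisons, their interaction and the F test come from 1 limma model (limma 3.58.1, R 4.3.3) with a mean per group over all 15 arrays. Steps were tested on simulated data. Figures used matplotlib 3.10.9 in Python 3.11.15. The highest correlation of any pair of arrays was 0.995. The number of arrays limits the precision, and an exact permutation test of 3 against 3 cannot go below p = 0.1.

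The genes and lists were chosen with earlier results of these data known. Values are given for up to 8 called genes per direction in comparisons within a number series and up to 4 in the others, by size of difference (the 3 smallest p where fewer than 3 were called), for the 3 smallest p of the F test, for the 3 largest spreads, and for up to 3 called genes per related list. Alternatives were quantile normalization, subtraction of array medians, dropping the lowest 0.25 of genes by mean, fitting each comparison's own arrays, a robust trended eBayes, array weights, other handling of several probe sets, the methods' t-test, a least fold of 1.5, and leaving out arrays. Promoter letters were searched on both strands.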

Additional observations from a re-analysis of the deposited data

How the results depend on the processing

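No paired analysis was possible because the labels give no replicate numbers that groups share. Over 44 values of named genes and their alternatives (1100 values), none changed sign, 1019 kept their side of the threshold, 63 lost and 18 gained a call. Under many of the alternatives the sign could not change. The t-tests, the trended eBayes, fits of the arrays compared and leaving out an array of another group keep the difference as it is. The genes were also named for large differences or small p, so the lack of reversals is no independent support. The counts of the 68 genes called moved more, and the cause was not tested. For AML post MDS against MRP8hBCL2 (0 called) they were 3 under quantile normalization, 1 after subtraction of array medians, 2 without the lowest genes, 19 with array weights, 11 by the methods' t-test unadjusted and 1 without MRP8NRASD12 8157 and HR-MDS 8398, beside 4.6%, 3.69%, 3.45%, 11.8%, 10.2% and 3.8% of all genes. For HR-MDS the t-test called 3 unadjusted against MRP8NRASD12 and 9 against tethBCL2, where array weights called 1 (0 called by limma in both), beside 3.37%, 16.6% and 5.23% of all genes. For tethBCL2 against MRP8NRASD12 (3 called) the counts were 15 after subtraction of array medians, 0 from only the arrays compared, 13 with array weights, 11 and 1 by the t-test unadjusted and adjusted, 0 with a least fold of 1.5 and 8 without MRP8NRASD12 8157 and HR-MDS 8398, beside 20.3%, 6.04%, 29.1%, 17%, 0.511%, 6.29% and 21% of all genes. Fits of only the arrays compared called 19 for AML post MDS and 13 for MRP8hBCL2 against MRP8NRASD12, and the adjusted t-test 5 and 3, beside 32 and 26. The adjusted t-test called 18 for AML post MDS against HR-MDS, beside 32.

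Leaving out each array in turn, counts ran from 0 to 4 for AML post MDS against MRP8hBCL2, 26 to 36 against MRP8NRASD12 and 26 to 35 against HR-MDS. They ran from 22 to 33 for MRP8hBCL2 against tethBCL2, 21 to 31 for it against MRP8NRASD12, 0 to 11 for tethBCL2 against MRP8NRASD12 and 33 to 45 for the F test, and stayed at 0 for HR-MDS against either founder and for the difference of the changes. Where an arm was left with 2 arrays, the spread was pooled over groups. The medians of the 68 genes without single arrays were added after seeing the data. Between the 3000s and the other arrays, the large subunit median differed by 0.30 as deposited and 0.22 after quantile normalization, and the small subunit median by -0.09 and -0.17.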

Other observations

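Besides the 68 genes, 3 probe sets carry a mitochondrial ribosomal protein symbol together with that of another gene. The one for Mrps6 and Slc5a3 ran from 8.11 to 8.61 on the 3000s arrays and from 8.14 to 8.65 on the others. The one for Ccdc142 and Mrpl53 ran from 6.88 to 7.46 and from 7.02 to 7.36, and the one for Mrps22 and Capza1 from 7.16 to 8.05 and from 7.23 to 8.21. All 3 overlapped between the series. The second probe set of Mrpl48 lay at 2.37 to 3.36, beside 4.90 to 6.25 for the one used.

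Over the 15 arrays the median pairwise correlation among the 68 genes was 0.21 on the deposited values, beside 0.00 between them and the other genes. It was 0.17 after subtracting array medians and 0.09 after quantile normalization (beside 0.02 and -0.01). Once group means were removed it was 0.35 on the deposited values, 0.21 after subtracting array medians and 0.11 after quantile normalization. The values with the other genes were then 0.06, 0.00 and 0.00. These pairs share arrays, so the values are a description, and the part of array-wide level in them is seen only in that change with scaling.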
